A study of Mus musculus with 20 samples.

Results

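Sim1, Otp, Pou3f2 and Arnt2 are 4 of the 53801 genes counted in mouse hypothalamus, taken by name as the transcription factors of paraventricular neurons. All 4 passed the filter on low counts and are among the 22181 genes that were tested. The study sequenced total RNA depleted of ribosomal RNA in 20 libraries, 5 in each of 4 groups. KO libraries come from MADIN mice, described as a double knockout that lacks both Magel2 and Ndn (the genotype field of the labels calls it a knockdown of both), and WT libraries come from C57BL/6J mice. Under a 12-h light and 12-h dark cycle each genotype was taken 6 h after light on (KO_day and WT_day) or 18 h after it (KO_night and WT_night). The labels do not give the age or sex of the mice, and they do not state that every library is a different mouse, so p values cover the variation among these libraries, which may be technical.

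The paraventricular nucleus of the hypothalamus holds the neurons that make oxytocin, vasopressin, corticotropin-releasing hormone and thyrotropin-releasing hormone, and it takes part in the control of feeding. In the mouse embryo SIM1 and ARNT2, proteins of the bHLH-PAS family that bind DNA as a pair, are needed for these neurons to form, and they act through the POU factor POU3F2 (also called BRN2). The homeodomain factor OTP is needed in parallel, and mice with 1 working copy of Sim1 overeat and become obese. Transcripts of all 4 genes were counted in each of the 20 libraries.

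Sim1 lies at chr10:50894754-50989152 on the plus strand (GRCm38, ENSMUSG00000019913) and Otp at chr13:94875602-94885130 on the plus strand (ENSMUSG00000021685). Pou3f2, a gene without introns, lies at chr4:22482780-22488366 on the minus strand (ENSMUSG00000095139), and Arnt2 at chr7:84246278-84410176 on the minus strand (ENSMUSG00000015709). Sim1, Otp and Pou3f2 overlap no annotated gene. Arnt2 holds the antisense gene Gm30873 at chr7:84338095-84347869, which had 507 to 782 counts per library, equal to 8.32% of the Arnt2 counts. These counts are listed for Gm30873 apart from those of Arnt2, so that share does not measure how uncertain the Arnt2 level is. No strand setting of the counting is recorded. Reads of one of the 2 genes may therefore have been counted for the other, to an extent that is not known.

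The 250 bases before the RefSeq start site (GRCm38.p6) are shown for Otp, the member that rose in KO, for Pou3f2, the member with a match to the core of the site that SIM and ARNT dimers bind, and for Oxt and Avp, the peptide genes that rose beside Otp. The windows are chr13:94875386-94875635 (plus) for Otp, chr4:22488367-22488616 (minus) for Pou3f2, chr2:130575919-130576168 (plus) for Oxt and chr2:130582589-130582838 (minus) for Avp. Capitals mark ACGTG or its reverse complement.
Otp: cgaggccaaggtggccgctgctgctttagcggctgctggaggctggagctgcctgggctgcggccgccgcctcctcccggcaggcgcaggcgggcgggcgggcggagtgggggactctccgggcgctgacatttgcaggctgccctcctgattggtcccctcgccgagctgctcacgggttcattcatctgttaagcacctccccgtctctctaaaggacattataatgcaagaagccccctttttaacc
Pou3f2: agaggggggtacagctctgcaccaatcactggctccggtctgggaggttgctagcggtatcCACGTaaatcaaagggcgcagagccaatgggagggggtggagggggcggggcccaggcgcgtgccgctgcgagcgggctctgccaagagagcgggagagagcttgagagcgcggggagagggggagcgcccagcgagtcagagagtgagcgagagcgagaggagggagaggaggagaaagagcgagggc
Oxt: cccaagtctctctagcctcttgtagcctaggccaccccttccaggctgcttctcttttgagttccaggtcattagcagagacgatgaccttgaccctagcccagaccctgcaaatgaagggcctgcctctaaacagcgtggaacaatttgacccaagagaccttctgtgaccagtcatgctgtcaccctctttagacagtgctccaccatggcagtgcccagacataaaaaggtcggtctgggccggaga
Avp: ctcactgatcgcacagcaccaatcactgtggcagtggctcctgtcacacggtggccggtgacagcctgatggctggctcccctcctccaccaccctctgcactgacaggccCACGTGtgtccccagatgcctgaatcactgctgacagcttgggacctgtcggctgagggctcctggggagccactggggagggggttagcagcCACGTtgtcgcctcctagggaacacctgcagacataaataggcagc

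A search for 3 motifs on both strands used windows of 250 bases before and 50 after the start, present for 8 of the 9 member and peptide genes, all but Crh. ACGTG occurred in 19.6% of all 32851 windows, the homeodomain core TAATTA in 5.29% and the POU octamer ATGCAAAT in 1.74%. ACGTG was found in Pou3f2 once, with its first base at -189 (the base before the start is -1), and in Avp at -139, -138 and -46, where the first 2 are the overlapping strands of the palindrome CACGTG. The windows of Sim1, Otp, Arnt2, Oxt, Trh and Sst held none of the 3 motifs. A match is a description of the letters and not a site of binding.

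Library totals ran from 32066289 to 48697647 counts, of which mitochondrial rRNA took 15% to 22.6%. Levels are CPM values from library totals that were scaled by TMM factors. Ndn, encoding necdin, stood at 0.25 to 1.01 CPM in KO libraries and at 239 to 346 CPM in 9 WT libraries, while the library labelled WT_day 3 stood at 30.9 CPM and goes against its label. In 6 libraries (KO_day 1 and 2, KO_night 1, 2 and 3, and WT_night 1) the time field contradicts the title, from which time was taken here. The 14 libraries with agreeing labels are 3 KO_day, 5 WT_day, 2 KO_night and 4 WT_night. A call can be lost among them because fewer libraries remain, above all at night. Where a call named below ends without WT_day 3, or under another use of the time labels, the loss is stated, though not always with its values.

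Transcription factors of other hypothalamic regions were present in all groups, and markers of neighbouring tissue varied between libraries. The 20 factors summed to 143 to 168 CPM in KO_day, 132 to 152 in WT_day, 156 to 170.0 in KO_night and 136 to 171 in WT_night. Of them 17 were higher in KO averaged over both times, where 49.6% of all tested genes were higher, and none passed. Their median log2 change was 0.13, against -0.001 for all tested genes and 0.05 for the 4 members. Rax had the smallest p among the 20, with a change of 0.45 ± 0.12 (SE, edgeR adjusted p = 0.0571). The 8 pituitary markers summed to 37.3 to 89.0 CPM in KO_day, 48.2 to 886 in WT_day, 32.2 to 331 in KO_night and 31.1 to 201 in WT_night. The 7 thalamus markers summed to 325 to 445 CPM in KO_night and 397 to 671 in WT_night. The part of tissue outside the hypothalamus in the results below was not tested. In bulk tissue, fewer cells of a type and less RNA per cell cannot be told apart.

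Otp was the only one of the 4 transcription factors that passed the test between genotypes, and it did so averaged over both times. Its level by day was 7.52, 7.97, 8.28, 8.76 and 8.15 CPM in the KO_day libraries, against 7.21, 6.16, 5.94, 5.77 and 6.12 CPM in the WT_day libraries. Every KO_day library lay above every WT_day library. The share of all tested genes that separate in this way is not given here, so the separation is a description only. At night it was 6.98, 6.95, 7.45, 9.06 and 7.05 CPM in the KO_night libraries, against 5.83, 7.11, 6.65, 7.20 and 7.40 CPM in the WT_night libraries. Those groups overlap, and 2 of the 5 KO_night libraries lay above the highest WT_night library. Over both times 7 of 10 KO libraries exceeded the highest WT library, and all 10 exceeded the WT median of 6.40 CPM.

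**Figure D1:**
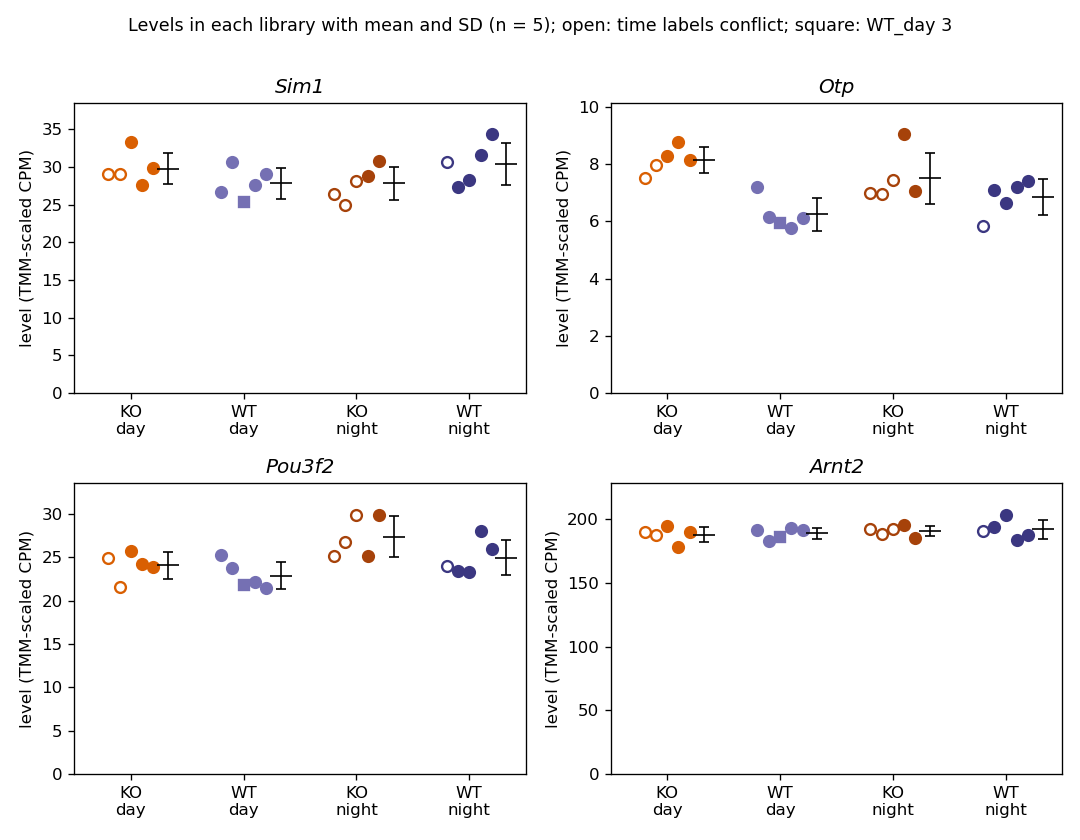
Levels of Sim1, Otp, Pou3f2 and Arnt2 in TMM-scaled CPM, 1 point per library, with the mean and SD of each group (n = 5). Open points are libraries whose time labels conflict, and the square is the library labelled WT_day 3. Only for Otp by day do the KO and WT points not overlap (lowest KO_day library 7.52, highest WT_day library 7.21). This is a description only, since the share of all tested genes that separate in this way is not given.

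The group means of Otp were 8.14 ± 0.452 CPM in KO_day and 6.24 ± 0.565 in WT_day, and 7.50 ± 0.893 in KO_night and 6.84 ± 0.625 in WT_night (SD, n = 5 each). Averaged over both times Otp rose by a log2 change of 0.26 ± 0.0602 (SE, 1.20-fold, edgeR adjusted p = 0.036). That makes 1 of 4 members, where 1.31% of all tested genes passed (291 genes, and 47 to 1265 with any 1 library left out, lowest without KO_night 3 and highest without WT_night 4). By day the change was 0.38 ± 0.0847 with an edgeR adjusted p of 0.0641, and no member passed, where 0.113% of all genes did (25 genes, and 15 to 73 with 1 library left out, lowest without KO_day 3 and highest without KO_day 2). At night it was 0.13 ± 0.0855 (edgeR adjusted p = 0.303), and again no member passed, where 11.9% of all genes did. Those are 2649 genes, and 122 to 4355 with 1 library left out (lowest without WT_night 3, highest without WT_night 4), 6 once libraries with conflicting time labels were left out, and 4 under the time field.

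The rise of Otp lies close to the threshold. It was lost without WT_day 2, 3 or 5, WT_night 1 or 3, KO_day 4 or 5, or KO_night 3, each left out alone, with edgeR adjusted p from 0.0524 to 0.0778 in these 8 fits. It was also lost with the 14 libraries whose time labels agree (0.31, edgeR adjusted p = 0.0926), with time from the time field (0.24, adjusted p = 0.1), with the replicate number as a block (0.25, adjusted p = 0.053) and with genotype as the single factor (0.26, adjusted p = 0.0766). The log2 change itself stayed between 0.22 and 0.31 in all 28 other fits. Without the library labelled WT_day 3 it was 0.25.

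**Figure D2:**
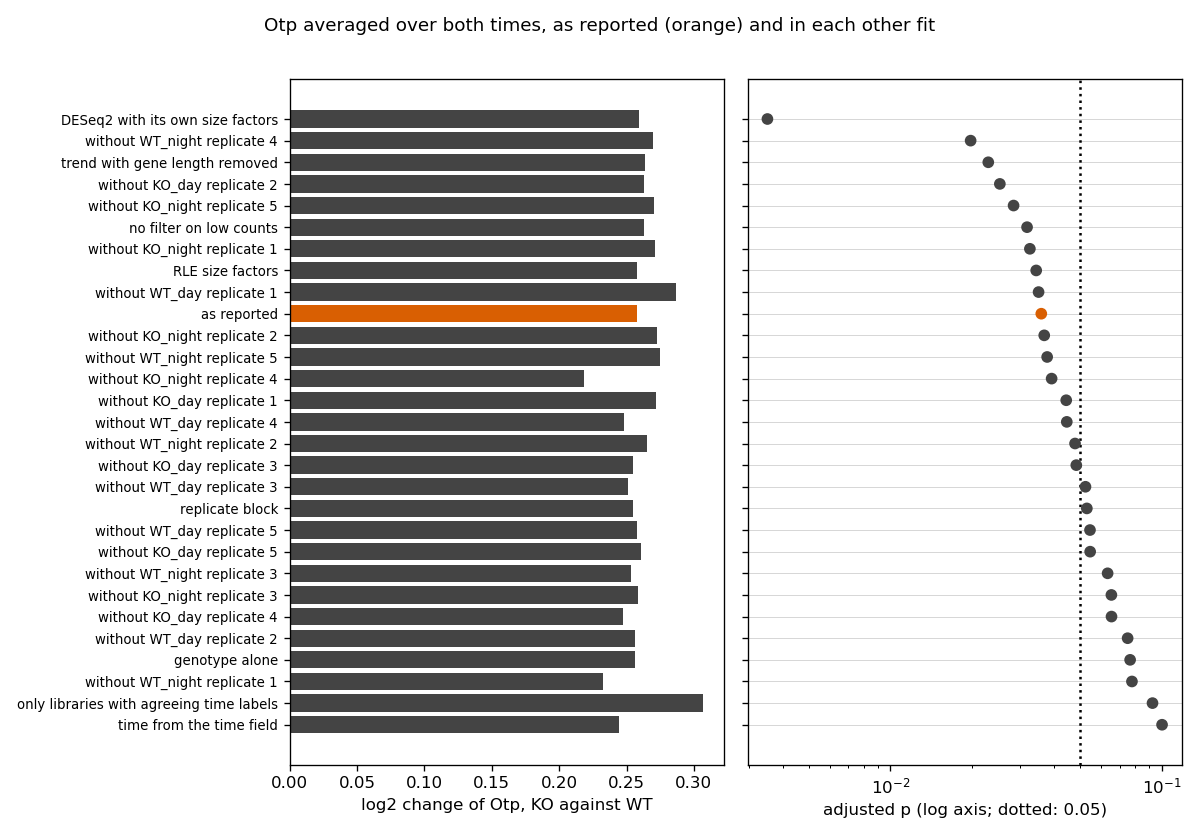
Log2 change of Otp in KO against WT averaged over both times (bars) and its adjusted p on a log axis (points), as reported (orange) and in 28 other fits. The changes lie between 0.22 and 0.31, and 12 of the 28 adjusted p values lie right of the dotted line at 0.05.

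Sim1 did not pass in any comparison. Its level was 29.1, 29.0, 33.3, 27.6 and 29.9 CPM in the KO_day libraries, against 26.7, 30.6, 25.3, 27.6 and 29.0 CPM in the WT_day libraries. In the night groups it was 26.4, 25.0, 28.2, 28.9 and 30.7 CPM in KO_night, against 30.6, 27.4, 28.3, 31.5 and 34.4 CPM in WT_night. The genotypes overlap at both times. The group means were 29.8 ± 2.10 CPM in KO_day and 27.8 ± 2.05 in WT_day, and 27.8 ± 2.23 in KO_night and 30.4 ± 2.79 in WT_night.

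Averaged over both times the log2 change of Sim1 was -0.02 ± 0.0472 (edgeR adjusted p = 0.883), with a 95% interval of -0.12 to 0.08. It was 0.10 by day (edgeR adjusted p = 0.699) and -0.13 at night (adjusted p = 0.194). The difference between these effects, the interaction of genotype and time, was -0.23 ± 0.0945 (edgeR adjusted p = 0.164). No member passed in the interaction, and neither did any of the tested genes (0% with edgeR), although 4910 genes had an unadjusted p under 0.05 and DESeq2 called 1223. The edgeR count was 105 with no filter, 6 with the length trend removed, and above 0 in 8 of the 20 fits with 1 library left out, up to 1555 without WT_night 4. The averaged change turned positive with the 14 libraries whose time labels agree (0.05).

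Pou3f2 was higher in KO at both times without passing. Its level was 24.9, 21.5, 25.7, 24.2 and 23.9 CPM in the KO_day libraries, against 25.2, 23.7, 21.8, 22.1 and 21.4 CPM in the WT_day libraries. At night it was 25.1, 26.8, 29.9, 25.1 and 29.8 CPM in KO_night, against 24.0, 23.4, 23.3, 28.0 and 25.9 CPM in WT_night. All 5 KO_night libraries lay above the WT_night median, but the groups overlap. Averaged over both times the log2 change was 0.10 ± 0.0462 (edgeR adjusted p = 0.219), with a 95% interval of 0.01 to 0.20. The change was 0.07 by day and 0.13 at night. Under other settings of the fit it ran from 0.07 to 0.17 by day and from 0.01 to 0.14 at night.

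Arnt2, the partner of SIM1, had the least spread of the 4 members. Its level was 190.2, 188, 195, 178 and 190.0 CPM in the KO_day libraries, against 192, 183, 186, 193 and 192 CPM in the WT_day libraries. In KO_night it was 193, 189, 193, 195 and 185 CPM, against 191, 194, 204, 184 and 188 CPM in WT_night. The averaged log2 change was -0.01 ± 0.0274 (edgeR adjusted p = 0.901), with a 95% interval of -0.07 to 0.05. Within groups its SD was 2.98% of the level, smaller than that of all but 0.762% of the tested genes. Arnt2 is also among the most deeply counted genes, since 2.99% of the tested genes had a higher CPM.

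This level of Arnt2 rests on how genes of different length are scaled. Arnt2 spans 163.9 kb, and the trend of counts with gene span differed between libraries, from -0.07 in KO_night 2 to 0.10 in WT_night 3, in log2 units for each factor of 10 in span. It was negative in each KO_night library. With a trend removed from every library, Arnt2 was higher in KO at night by 0.15 (edgeR adjusted p = 0.0227), where 2006 of the 22181 genes passed, and its change averaged over both times was 0.07 (adjusted p = 0.175). The median log2 change of all tested genes also moved, from 0.005 to 0.041 at night and from -0.001 to 0.023 averaged. Sim1, which spans 94.4 kb, was then at 0.03 averaged over both times. Otp, with a span of 9.5 kb, kept its rise (0.26, adjusted p = 0.023).

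**Figure D3:**
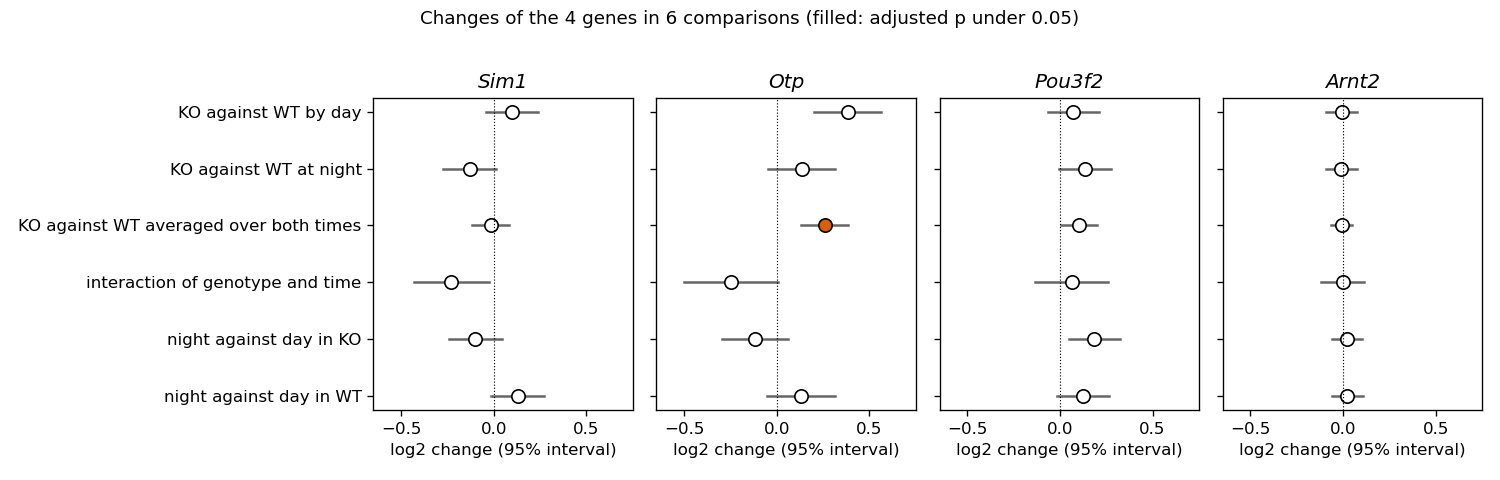
Log2 changes (points) with 95% intervals (lines) of the 4 genes in 6 comparisons, filled where the adjusted p is under 0.05. The filled point is Otp averaged over both times at 0.26, and each interval of Arnt2 spans 0.

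No member passed in night against day in either genotype. In KO the log2 changes were -0.10 for Sim1, -0.12 for Otp, 0.19 for Pou3f2 (edgeR adjusted p = 0.152) and 0.02 for Arnt2, and 0.0721% of all genes passed (16, and 0 to 328 with 1 library left out). In WT they were 0.13 for Sim1, 0.13 for Otp, 0.12 for Pou3f2 and 0.02 for Arnt2, and 0.275% of all genes passed (61, and 9 to 179 with 1 library left out). All 4 members were thus higher at night in WT without passing, against a median of 0.00 over all genes. With time from the time field the KO values of Sim1, Otp and Pou3f2 changed sign, to 0.05, 0.02 and -0.04.

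The order of the group means differed between members. From high to low it was WT_night, KO_day, WT_day and KO_night for Sim1, and KO_day, KO_night, WT_night and WT_day for Otp. For Pou3f2 it was KO_night, WT_night, KO_day and WT_day, and for Arnt2 WT_night, KO_night, WT_day and KO_day. Neighbours in these orders lay within 1 SD of each other, using the larger SD of the pair, except for Pou3f2, where KO_night exceeded WT_night by 2.43 CPM with an SD of 2.39. Per kb of exon and over all 20 libraries, the levels were 24.7 ± 0.708 CPM for Arnt2, 4.44 ± 0.437 for Pou3f2, 3.36 ± 0.282 for Sim1 and 2.49 ± 0.328 for Otp. Per kb of gene span Pou3f2 was highest at 4.44, followed by Arnt2 at 1.16, Otp at 0.753 and Sim1 at 0.307 CPM, so the order between genes depends on which length the counts cover.

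Depth differed between the members as well. Counts per library ran from 881 to 1450 for Sim1, 202 to 395 for Otp, 774 to 1158 for Pou3f2 and 6098 to 9209 for Arnt2. Counting error alone was 6.04% of the level for Otp, against a spread within groups of 9.19%. For Sim1 it was 3.01% against 7.93%, for Pou3f2 3.26% against 7.63%, and for Arnt2 1.17% against 2.98%.

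Ratios of 2 genes within a library do not depend on the scaling of libraries, and 12 were tested with an exact permutation of genotype within each time. The Sim1/Otp count ratio was 3.87, 3.64, 4.02, 3.15 and 3.67 in the KO_day libraries, against 3.71, 4.97, 4.26, 4.78 and 4.74 in the WT_day libraries. It was 3.78, 3.60, 3.78, 3.19 and 4.36 in KO_night, against 5.25, 3.85, 4.26, 4.38 and 4.65 in WT_night. All 5 KO_day values lay under 4 of the 5 WT_day values, and 4 of the 5 KO_night values lay under every WT_night value. Averaged over both times the ratio fell by 0.27 on the log2 scale (exact two-sided permutation p = 0.0013, adjusted over the 12 ratios 0.0071).

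The Sim1/Otp ratio fell by 0.29 by day (exact permutation p = 0.0238) and by 0.26 at night (exact p = 0.0397), where 5 against 5 libraries allow no p below 0.0079. The adjusted p stayed between 0.0042 and 0.0145 with any 1 library left out, and was 0.0905 with the libraries whose time labels agree. The Otp/Arnt2 ratio rose by 0.27 (exact permutation p = 0.0015, adjusted 0.0071), with 0.0396 to 0.0492 in KO_day and 0.0299 to 0.0376 in WT_day, and with 0.0362 to 0.0464 in KO_night and 0.0305 to 0.0393 in WT_night. Its adjusted p was 0.0978 once the length trend was taken out, an alternative chosen after seeing the data. The ratios Sim1/Pou3f2 (-0.12), Sim1/Arnt2 (-0.01), Otp/Pou3f2 (0.15) and Pou3f2/Arnt2 (0.11) did not pass (adjusted p from 0.119 to 0.903).

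**Figure D4:**
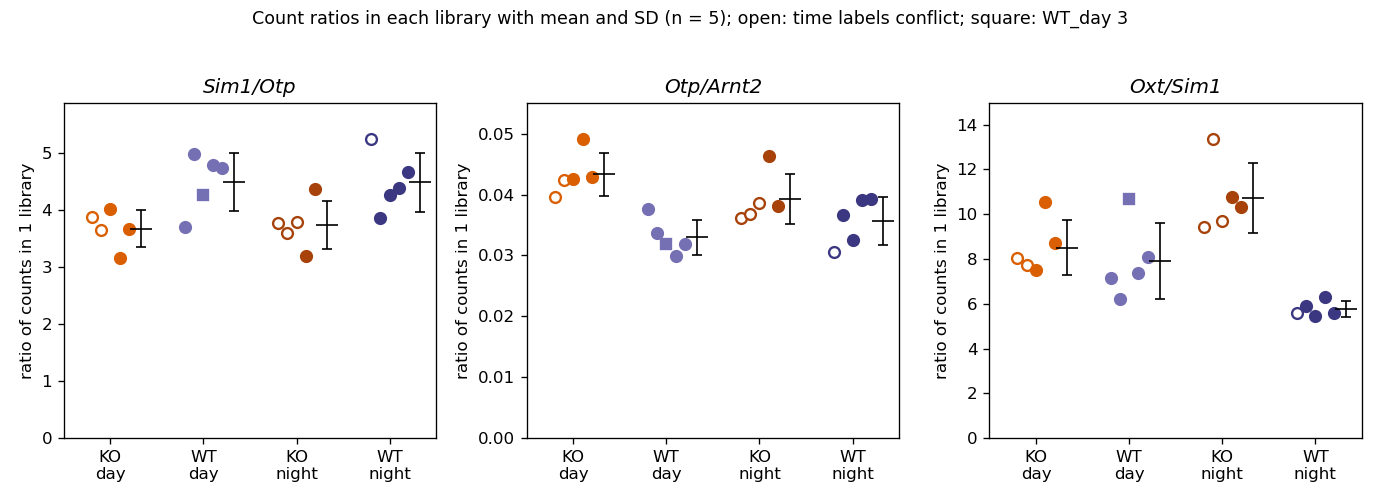
Count ratios Sim1/Otp, Otp/Arnt2 and Oxt/Sim1 in each library, with the mean and SD of each group (n = 5), open points and the square as in the plot of levels. The Sim1/Otp means are 3.67 in KO_day, 4.49 in WT_day, 3.74 in KO_night and 4.48 in WT_night, and for Oxt/Sim1 all KO_night points (9.44 to 13.4) lie above all WT_night points (5.45 to 6.29).

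The 5 peptide genes of neuroendocrine neurons were higher in KO averaged over both times, and 2 of them rose, Oxt by 0.48 ± 0.0691 (edgeR adjusted p = 8.3e-04) and Avp by 0.33 ± 0.0747 (adjusted p = 0.032). Sst, the gene of somatostatin, was at 0.23, Trh at 0.13 and Crh at 0.02. By day none of the 5 passed, where 0.113% of all genes did, and Crh, the gene of corticotropin-releasing hormone, was at -0.47 (edgeR adjusted p = 0.241). At night 3 of 5 rose, where 11.9% of all genes passed, namely Oxt by 0.76, Avp by 0.45 and Crh by 0.52 (adjusted p from 2.3e-04 to 0.0323).

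The calls of Oxt held with any 1 library left out, and those of Avp and Crh did not. Avp averaged was lost without WT_day 1 or 2, WT_night 1, 2 or 3, KO_day 1 or 4, or KO_night 3 (edgeR adjusted p from 0.0516 to 0.0742), and with genotype as the single factor (0.0688). At night Avp was lost without WT_night 1 or 3 or KO_night 2 (0.0526 to 0.072), and Crh without WT_night 1 or 3 or KO_night 2 or 3 (0.0752 to 0.0983). With the libraries whose time labels agree, Oxt was the 1 of the 5 that passed, averaged (0.56, edgeR adjusted p = 0.0067) and at night (0.83, adjusted p = 0.014). With time from the time field none of the 5 passed at night, where Oxt was at 0.62 and Avp at 0.53 (both adjusted p = 0.245) and Crh at 0.05 (adjusted p = 0.979).

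Within a library the Oxt count averaged 10.7 ± 1.57 times that of Sim1 in KO_night and 5.77 ± 0.337 times in WT_night. By day it averaged 8.50 ± 1.22 times in KO_day and 7.90 ± 1.69 times in WT_day. In the library labelled WT_day 3 it was 10.7 times, against 6.23 to 8.07 times in the other WT_day libraries. Averaged over both times the Oxt/Sim1 ratio rose by 0.50 (exact permutation p = 0.0018, adjusted 0.0071) and the Avp/Sim1 ratio by 0.35 (exact p = 0.0048, adjusted 0.0145). Both were lost when libraries with conflicting time labels were left out (adjusted p of 0.0714 for Oxt/Sim1 and 0.255 for Avp/Sim1). Set against Otp, the Oxt ratio did not pass (0.23, exact permutation p = 0.0996, adjusted 0.149) and neither did that of Avp (0.08). The Crh/Sim1 ratio was -0.60 by day and 0.64 at night (exact permutation p of 0.0317 and 0.0079) and 0.02 averaged over both times. With agreeing time labels it was -0.43 by day and 0.36 at night (exact permutation p of 0.125 and 0.133). Those values rest on 3 KO against 5 WT libraries by day and 2 against 4 at night. At night these numbers allow no exact p below 0.0667, so that test could not pass. With time from the time field the Crh/Sim1 ratio was -0.0035 by day and 0.066 at night (exact permutation p of 0.987 and 0.8).

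Of the 16 genes of the bHLH-PAS family, to which Sim1 and Arnt2 belong, none rose, 1 fell and 15 did not pass averaged over both times, with a median of -0.05 against 0.00 for all genes. The gene that fell was Npas2, a paralogue of Clock, by 0.28 ± 0.069 (edgeR adjusted p = 0.045). That call was lost in 15 of the 20 fits with 1 library left out (edgeR adjusted p from 0.05005 to 0.0844), among them that without WT_day 3 (0.0653), and it held without WT_day 4, WT_night 4, KO_day 2, KO_night 4 or KO_night 5. It was also lost with agreeing time labels (-0.21, adjusted p = 0.221), the time field (0.0579), the replicate block (0.072) and genotype as the single factor (0.0884). At night 4 of the 16 fell, where 11.9% of all tested genes passed and 1501 of the 22181 fell, namely Npas2 (-0.43), Npas3 (-0.37), the circadian partner Arntl (-0.28) and Arnt (-0.27), the ubiquitous relative of Arnt2. None of these 4 passed at night with the 14 libraries of agreeing time labels or with time from the time field. All 4 were lost without WT_night 3, and Npas3 and Arnt also without WT_night 1 or KO_night 2 or 3 (edgeR adjusted p from 0.0576 to 0.0968 in these fits). After removal of the length trend, Npas2 was the one that fell. Arntl rose at night in WT by 0.32 (adjusted p = 0.0262) and was at -0.02 in KO, where the test of this difference gave an edgeR adjusted p of 0.0641. The rise in WT was lost without WT_day 3 (0.0664), WT_day 4 or 5 or WT_night 3 (edgeR adjusted p up to 0.0848), with the time field (0.0748), with the length trend removed (0.063) and with the replicate block (0.0646). The KO value of Arntl was 0.13 with agreeing time labels and 0.14 with the time field.

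Sim2, the nearest relative of Sim1, stood at 1.43 ± 0.128 CPM in KO_day and 1.23 ± 0.188 in WT_day, and its averaged change of 0.14 did not pass. The other members of the family did not pass averaged over both times, among them Arntl (-0.12), Arntl2 (-0.10), Arnt (-0.10), Npas3 (-0.20), Npas1 (0.01), the activity-induced Npas4 (-0.08), the clock gene Clock (-0.02), Ahr (0.03), Ahrr (-0.09), and the hypoxia factors Hif1a (0.02), Epas1 (0.14) and Hif3a (-0.32). Among the POU class III genes, to which Pou3f2 belongs, none of the 3 tested passed averaged over both times, and Pou3f1 rose at night by 0.49 ± 0.138 (edgeR adjusted p = 0.0281). It did not pass with agreeing time labels (0.28, edgeR adjusted p = 0.601) or with the time field (0.27, adjusted p = 0.918), nor without WT_night 1, 3 or 5 or KO_night 1, 2 or 3 (0.0645 to 0.076). Pou3f4 was at 0.01 in both, and Pou3f3 had 0 counts in all 20 libraries and was not tested. Whether Pou3f3 RNA is absent or its reads were not assigned to the gene cannot be told from the counts.

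Of 15 other genes of paraventricular neurons, 11 were higher in KO averaged over both times and 2 rose. They were Calcr, the calcitonin receptor, by 0.28 ± 0.0539 (edgeR adjusted p = 0.0194) and Irs4, an insulin receptor substrate, by 0.18 ± 0.0402 (adjusted p = 0.03). Nos1, neuronal nitric oxide synthase, was at 0.15 (adjusted p = 0.0501) and Penk, the enkephalin gene, at 0.12. With the libraries whose time labels agree Calcr was the 1 that rose (0.35, adjusted p = 0.0332). Calcr passed with any 1 library left out, and Irs4 was lost without WT_day 2, WT_night 1 or 3, KO_day 1 or 4, or KO_night 3 (edgeR adjusted p from 0.0509 to 0.0696), with the time field (0.0817) and with genotype as the single factor (0.0688).

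Markers of some other cell types were also higher in KO. All 8 oligodendrocyte markers were higher in KO averaged over both times and 1 rose, Mag by 0.26 ± 0.0568 (edgeR adjusted p = 0.03), a call lost without WT_day 2, WT_night 1, KO_day 4 or 5, or KO_night 3 (0.0505 to 0.0663), with the time field (0.0817) and with genotype as the single factor (0.0612). Their summed level was 2163 to 2511 CPM in KO_day and 2181 to 2388 in WT_day, and 2179 to 2928 in KO_night and 2015 to 2490.5 in WT_night. All 8 astrocyte markers and all 6 markers of oligodendrocyte precursors were higher, and none passed. Of 7 neuronal markers tested 5 were higher and Gad1, which makes GABA, rose by 0.14 (edgeR adjusted p = 0.0467). The eighth, Tubb3, had 0 counts in every library, which does not show that its RNA is absent, since its reads may not have been assigned. The call of Gad1 was lost with agreeing time labels (0.075, adjusted p = 0.453), the time field (0.12), the replicate block (0.0759) and genotype as the single factor (0.0976). It was also lost in 15 of the 20 fits with 1 library left out, among them that without WT_day 3 (0.0653), and held without WT_day 4, WT_night 4, KO_day 2, KO_night 4 or KO_night 5. Averaged over both times none passed among the markers of microglia, endothelium, tanycytes and ependyma, cortex and hippocampus, striatum, thalamus, amygdala or pituitary. At night, where 11.9% of all tested genes passed, 3 oligodendrocyte, 2 neuronal, 1 astrocyte and 1 precursor marker rose. P2ry12 of microglia (-0.18), Cyp26b1 of amygdala (-0.89) and Rora of thalamus (-0.45) fell. Slc17a7, listed for thalamus and amygdala, rose by 2.07 (edgeR adjusted p = 0.0319). None of these night calls held with agreeing time labels or with the time field, where Slc17a7 was at -0.64 and -0.54. The part of these markers in the change of Otp was not tested.

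Across the 20 libraries, with the 4 group means taken out, 26 relations between members or between a member and a peptide gene were computed. The relation that passed was that of Arnt2 with Trh (Pearson r = -0.82, permutation p = 2.0e-04, adjusted 0.0052; Spearman rho = -0.75, adjusted 0.0239). Without the 2 libraries farthest from the median of Arnt2, KO_day 4 and WT_night 4, r was -0.78. With the trend with gene length removed it was 0.09 (adjusted permutation p = 0.833). Between members the closest relation was that of Sim1 with Pou3f2 (r = 0.47, adjusted permutation p = 0.406), and Sim1 with Otp gave 0.15. With the length trend removed r was 0.63 for Sim1 with Pou3f2 (adjusted permutation p = 0.154) and 0.20 for Sim1 with Otp, and neither passed.

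**Figure D5:**
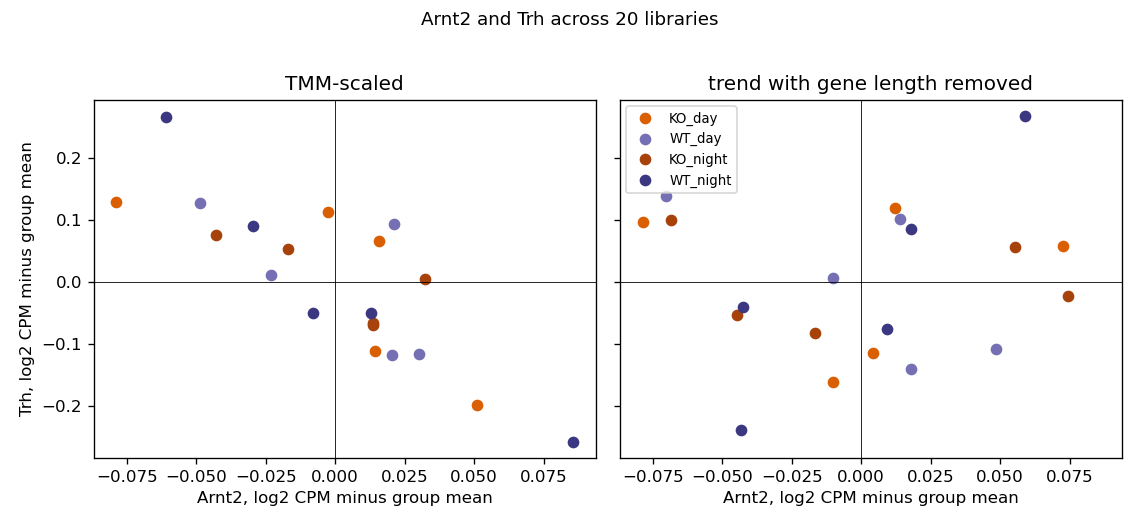
Deviations of Arnt2 (x axis) and Trh (y axis) from their group means in log2 CPM, 1 point per library, as scaled by TMM (left, r = -0.82) and after removal of the length trend (right, r = 0.09). The left points run from high Trh at low Arnt2 to low Trh at high Arnt2, and the right points show no slope.

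The protein-coding genes whose levels followed each member most closely over the 20 libraries were taken from 14015 genes with a mean of at least 1 CPM, as a description over libraries that share group, depth and scaling. For Otp they were Phf13 (Pearson r = 0.84), Zfp703 (0.82), Syn1 (0.81), Vars (0.79) and Pianp (0.79). For Sim1 they were Fam126a (r = 0.79), Wwp1 (0.77), Zfhx4 (0.76), Rap1a (0.73) and Arfgef1 (0.72). For Pou3f2 they were Camsap2 (r = 0.91), Zyg11b (0.89), Pcdh18 (0.89), Ankrd50 (0.88) and Tmem229a (0.88), and for Arnt2 Scn8a (r = 0.82), Kdm3b (0.80), Patj (0.80), Gramd1b (0.80) and Atp2b2 (0.78). No gene was on more than 1 of these lists, which says little, since each list holds 5 of the 14015 genes.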

How the data were processed

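The authors deposited raw counts per gene, made with HISAT2, featureCounts and the mm10 build per the submitters' processing notes, which give no version, annotation or strand setting. Of the 53801 identifiers 53706 matched GENCODE M21, used for symbols, positions and lengths. Time was taken from the title, and from the time field for KO_day 5, whose title names none. The title number of WT_day 5 was already taken, and it was given the missing one. Genes were tested with edgeR 4.0.16 in R 4.3.3 (quasi-likelihood F-test, TMM factors 0.945 to 1.08, filterByExpr with a minimum count of 10), in 1 fit of 4 group means to 20 libraries with Benjamini-Hochberg adjustment over 22181 genes. "Rose" and "fell" are used of an adjusted p under 0.05. Intervals are 95% intervals from the SE with 16 degrees of freedom. The fits were tested on simulated data. No pair of the 40 within groups agreed within sampling noise (chi-square per degree of freedom 5.58 to 53.7).

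Relations used log2 CPM (prior count 2) with 100000 permutations within groups, and ratios 63504 exact ones. A spline of 5 degrees of freedom removed the trend with gene span in an alternative. Other alternatives were DESeq2 1.42.0, RLE factors, no filter, a replicate block, other uses of the time labels, genotype alone and each library left out. Named genes are the 4 members, the peptide, bHLH-PAS and POU class III lists, up to 4 genes of each other list by p, and the 5 genes most like each member. Members and lists were chosen with earlier results of these data known. Promoter windows are from RefSeq.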

Additional observations from a re-analysis of the deposited data

Results flagged for a closer look

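Within groups of 5 libraries, a library was marked where its gap to the nearest other was large against the range of the group. Of 44 groups checked 4 were marked, where chance marks about 1 in 20. Otp in KO_night 4 stood at 9.06 CPM, with the next library at 7.45 CPM. Without KO_night 4 the averaged change of Otp was 0.22 (edgeR adjusted p = 0.0393). Otp in WT_day 1 stood at 7.21 CPM, with the next at 6.16 CPM, and without it the change of Otp by day was 0.44 (adjusted p = 0.0407). In the library labelled WT_day 3 Ndn stood at 30.9 CPM, with the next WT_day library at 248 CPM, and Magel2 at 2.15 CPM, with the next at 15.6 CPM.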

How the results depend on the processing

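The 4 members were refitted under 8 other settings and with each library left out. Replicate numbers did not pair the libraries (30 same-numbered pairs, correlation of deviations -0.167 to 0.303, 3 over 0.1, and 4 of 20 libraries closest to their own number). With a replicate block Otp averaged was 0.25 (edgeR adjusted p = 0.053), 215 genes passed averaged, 48 by day and 1689 at night, and no other member call changed; Npas2 and Gad1 averaged and Arntl at night in WT were lost. With agreeing time labels Otp averaged was 0.31, Sim1 averaged 0.046, the ratio Sim1/Arnt2 0.062 and Crh/Sim1 -0.033, and r was -0.070 for Sim1 with Otp, -0.037 for Sim1 with Oxt, -0.068 for Otp with Oxt and -0.0089 for Pou3f2 with Oxt. With time from the time field Otp averaged was 0.24 and by day 0.33 (passed). Night against day in KO was then 0.050 for Sim1, 0.024 for Otp, -0.038 for Pou3f2 and -0.0013 for Arnt2, the interaction of Pou3f2 -0.16 and Arnt2 by day 0.0032. With genotype alone Otp was 0.26. DESeq2 called Otp by day (0.39). With no group means taken out r was -0.24 for Sim1 with Oxt, -0.026 with Avp and -0.14 with Trh.

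With the length trend removed, for ratios and relations an alternative chosen after seeing the data, Otp by day passed (0.40). Sim1 averaged was 0.034, Arnt2 averaged 0.067, at night 0.15 (passed), night against day in WT -0.057 and its interaction 0.17, and Crh/Sim1 was -0.024. r was 0.082 for Sim1 with Arnt2, 0.30 for Pou3f2 with Arnt2, and for Arnt2 0.28 with Oxt, 0.25 with Avp, 0.091 with Trh and 0.35 with Sst. The cause of these shifts was not tested.

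With 1 library left out, Otp ran from 0.22 to 0.29 averaged (adjusted p from 0.0198 to 0.0778) and from 0.37 to 0.44 by day (passing in 7 of 20), and Sim1 averaged from -0.036 to 0.011. Arnt2 ran from -0.0138 to 0.0047 averaged, -0.017 to 0.024 by day, -0.030 to 0.010 at night, -0.0044 to 0.030 for night against day in KO and -0.038 to 0.013 in the interaction. Crh averaged ran from -0.051 to 0.077, Sim1/Arnt2 from -0.031 to 0.019 and Crh/Sim1 from -0.038 to 0.083.

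The number of genes that passed averaged (291) was 1052 with DESeq2, 58 with agreeing labels, 30 with the time field, 679 with the length trend removed and 37 with genotype alone. By day (25) it was 187 with DESeq2, 60 with no filter, 89 with agreeing labels, 149 with the time field and 48 with the trend removed. At night (2649) it was 6 with agreeing labels, 4 with the time field and 2006 with the trend removed (1520 higher and 486 lower, against 1148 and 1501). In KO over time (16) it was 581, 70 and 99 with DESeq2, no filter and the trend removed, and 0 with the time field. In WT (61) it was 387, 108, 104 and 33 with DESeq2, no filter, agreeing labels and the trend removed, and 0 with the time field. In the interaction it was 1223, 105 and 6 with DESeq2, no filter and the trend removed. With 1 library left out these counts ran from 47 to 1265 averaged, 15 to 73 by day, 122 to 4355 at night, 0 to 328 in KO, 9 to 179 in WT and 0 to 1555 in the interaction. Depth limits Otp most, with 202 to 395 counts per library.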
